A study of Mus musculus with 4 samples.

Results

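Acute phase proteins are secreted in large amounts when tissue is damaged or infected, and the liver is their best known source. Interleukin 6 and related cytokines switch on many of their genes through STAT3, and interleukin 1 and tumour necrosis factor act through C/EBP proteins and NF-kB. Some of these genes also have sources outside the liver, among them fibroblasts, macrophages and granulocytes, and the proteins bind iron, haemoglobin or microbial surfaces or block proteases released by leukocytes.

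The genes described here were *Saa3*, *Lcn2*, *Ptx3*, *Serpina3n*, *Serpina3g*, *Hp*, *Cp*, *Steap4* and *Orm1*, 9 of the 32285 genes in the count matrices. They were taken by symbol and had been selected on their UMI levels in these same libraries, as acute phase genes of injured stroma. Their levels below are therefore given as a description, without a test. The data were 4 single-cell RNA sequencing (scRNA-seq) libraries of tibial muscle from *Nse-Bmp4* mice on a C57BL/6 background, aged 6 to 8 weeks. All mice, the uninjured ones included, carried the transgene, in which the rat *Nse* promoter drives murine *Bmp4* cDNA. The first library came from uninjured muscle (Uninjured) and the other 3 from muscle collected 1 day, 3 days or 7 days after injury (dpi, days post injury) with cardiotoxin (CTX), a snake toxin that kills muscle fibres. Each library pooled 3 muscles, and no library of injured muscle without the transgene was used here. A time point was a single library without replicates, so no p-value was computed, and a difference between time points cannot be told apart from a difference between libraries.

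The libraries held 11722 to 23752 cells and 91146335 to 129007669 unique molecular identifiers (UMIs), each of which marks 1 captured transcript. Median UMIs per cell were 8629 in Uninjured, 5561.5 at 1 dpi, 4214 at 3 dpi and 3083 at 7 dpi, so depth per cell fell along the time course. After filters, 9641 to 20301 cells per library remained. Cells were assigned to classes by marker genes that included none of the 9 members. A cell entered a class when it carried at least 3 of the 8 markers of the class, with a lead of at least 2 over every other class. Mesenchymal cells and chondrocytes were the exception. They needed no lead over each other, and chondrocytes needed at least 5 markers. Mesenchymal cells, the stroma of this muscle, numbered 8454 in Uninjured, 3937 at 1 dpi, 6755 at 3 dpi and 12295 at 7 dpi. All 8 mesenchymal markers, among them *Pdgfra*, *Prrx1* and *Col1a1*, were detected in these cells in every library. The summed level of the 8 neutrophil markers in them was 20.2 to 49.0 normalised counts (CPM, UMIs of a gene per 1000000 UMIs of the class), and no neutrophil marker was at 0. The summed level of the 8 chondrocyte markers in them was 8.49, 4.44, 5.24 and 586 CPM in Uninjured, 1, 3 and 7 dpi. Mesenchymal cells of 7 dpi thus included cells with some chondrocyte markers, and their part in the 7 dpi levels was not tested. Cells that met no gate made up 3.86% of Uninjured, 7.07% of 1 dpi, 17.2% of 3 dpi and 8.10% of 7 dpi.

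At 1 dpi the label of stroma held for 5 of the 9 genes. *Saa3*, *Ptx3*, *Serpina3n*, *Cp* and *Steap4* had 93.1% to 98.2% of their UMIs at 1 dpi in mesenchymal cells, which were 40.8% of the cells of that library. The other 4 genes had most of their UMIs at 1 dpi elsewhere. Neutrophils were 5.29% of the cells and held 72.7% of *Lcn2*, 74.7% of *Orm1* and 50.1% of *Hp* UMIs. NK and T cells were 10.7% of the cells and held 65.7% of *Serpina3g* UMIs. By 7 dpi mesenchymal cells had the largest share of *Hp*, *Serpina3g* and *Lcn2* among the classes, 59.0%, 44.4% and 36.2%. They were 60.6% of the cells of that library, so each of these shares was below their share of cells. Neutrophils were 0.394% and NK and T cells 3.72% of the cells there.

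**Figure D1:**
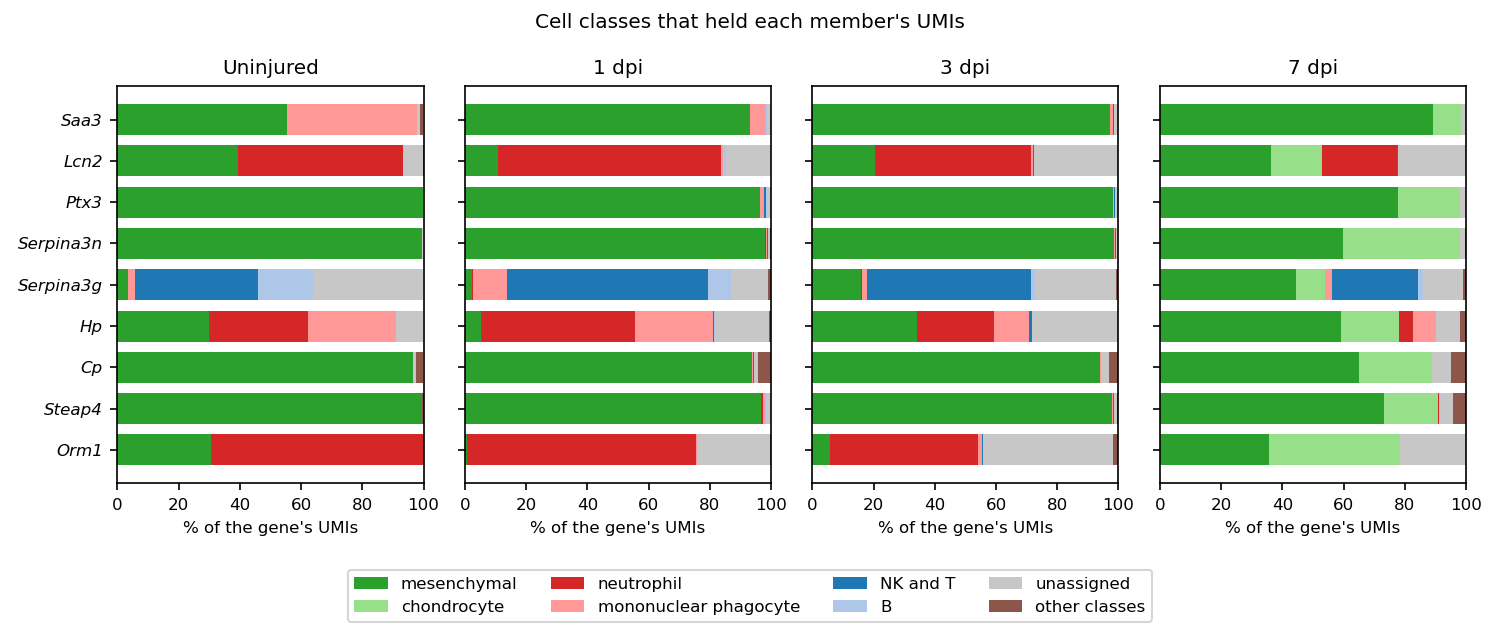
Share of each gene's UMIs (x axis, percent) held by each cell class, with 1 panel per library and 1 bar per gene. Mesenchymal cells held nearly all UMIs of *Saa3*, *Ptx3*, *Serpina3n*, *Cp* and *Steap4* at 1 dpi, and neutrophils held 72.7% of *Lcn2* and 74.7% of *Orm1* UMIs there.

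Within mesenchymal cells the genes followed different time courses. The make-up of this class also differed between libraries, as the marker subgates below show, and its part in these courses was not tested. *Saa3*, *Lcn2*, *Cp* and *Steap4* were highest at 1 dpi, *Ptx3* and *Serpina3n* were highest at 3 dpi, and *Hp* and *Serpina3g* were highest at 7 dpi. Against Uninjured, 4 of the 9 genes were at least 4-fold higher at 1 dpi, namely *Saa3*, *Lcn2*, *Serpina3n* and *Serpina3g*, and none was 4-fold lower. Among the 14858 genes with at least 20 UMIs in the higher library, 3.53% were at least 4-fold higher and 0.969% at least 4-fold lower in the same comparison. Since the genes were chosen with these values known, nothing is read from that difference. Of the 9 genes, 8 reached 20 UMIs, and *Orm1* did not. The median log2 ratio of those 8 was 1.70, beside 0.16 over all genes. *Serpina3g* and *Hp* had fewer than 500 UMIs in these cells in both libraries, which limits their ratios.

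**Figure D2:**
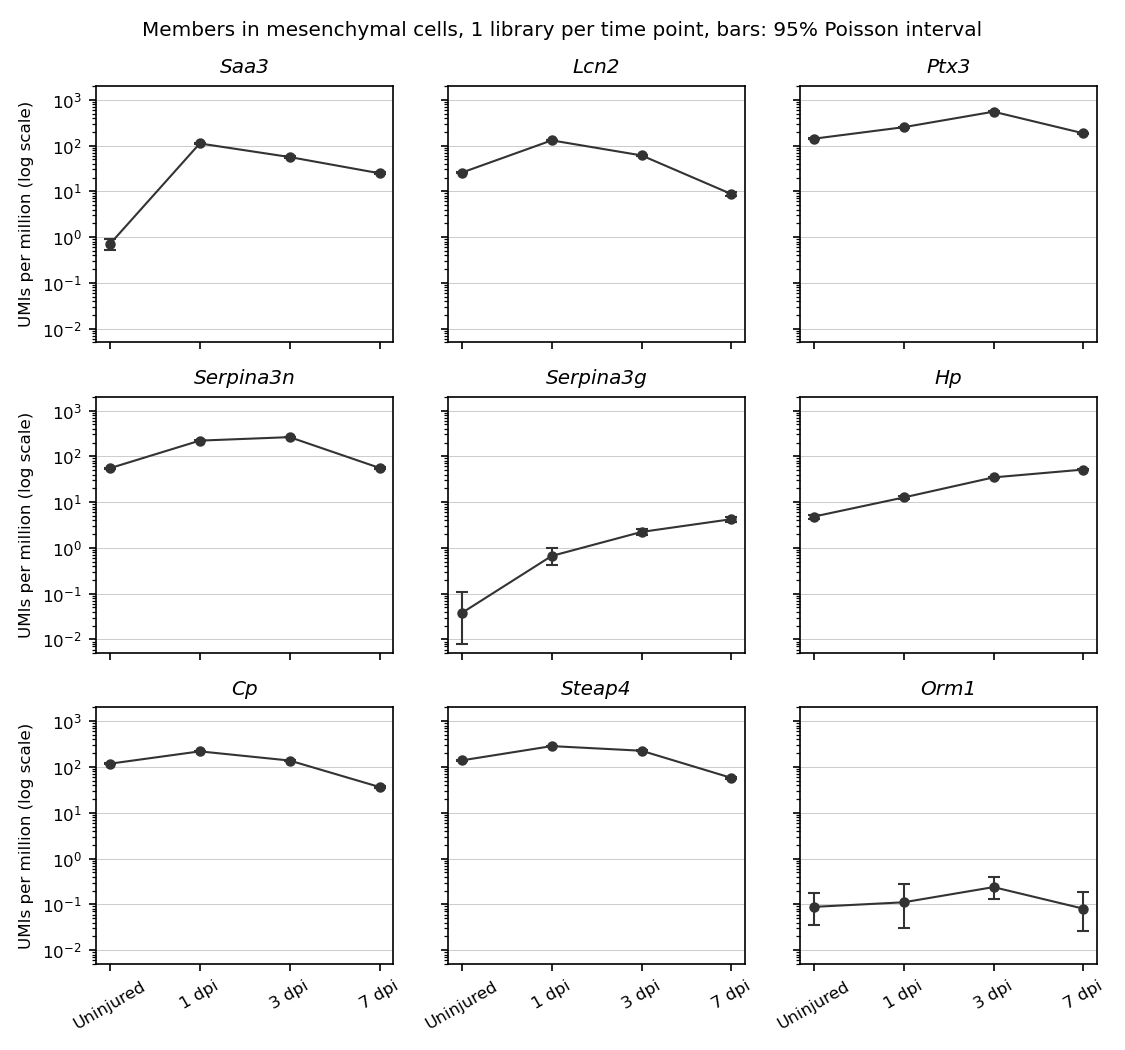
Level of each gene in mesenchymal cells (y axis, CPM on a log scale) in the 4 libraries (x axis), with bars for the exact Poisson interval. *Saa3* went from 0.705 in Uninjured to 111 at 1 dpi, while *Orm1* stayed at or below 0.238 in every library.

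*Saa3* encodes serum amyloid A 3, the form of this lipid-binding acute phase protein that is made mainly outside the liver in mice. The gene lies on chromosome 7, at chr7:46711998-46715700 on the minus strand of GRCm38. Its level in mesenchymal cells was 0.705 CPM in Uninjured, 111 CPM at 1 dpi, 56.1 CPM at 3 dpi and 24.8 CPM at 7 dpi. This was 158-fold higher at 1 dpi than in Uninjured, with a 95% counting interval from 121 to 209. The level was 1.98-fold lower at 3 dpi than at 1 dpi (interval 1.89 to 2.07) and 2.26-fold lower at 7 dpi than at 3 dpi (interval 2.13 to 2.40). The log2 ratio of 7 to 3 dpi, -1.18, was -0.16 in thinned cells and -0.13 as the mean of cell CPM. At 7 dpi it was still 35.2-fold above Uninjured (interval 26.9 to 46.8). The Uninjured level rested on 56 UMIs in 22 cells, 24 of them in 1 cell. Without the filters on cells, the log2 ratio of 1 dpi to Uninjured was 5.53 instead of 7.30, so the size of this ratio depended on which cells were kept. All these intervals are exact and cover counting error only, not differences between mice or dissections.

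*Lcn2* encodes lipocalin 2, which captures the siderophores that bacteria use to take up iron, and is stored in neutrophil granules. It lies at chr2:32384633-32388252 on the minus strand. In mesenchymal cells its level was 25.6 CPM in Uninjured, 129.9 CPM at 1 dpi, 60.9 CPM at 3 dpi and 8.71 CPM at 7 dpi. It was 5.06-fold higher at 1 dpi than in Uninjured (interval 4.81 to 5.34) and 6.99-fold lower at 7 dpi than at 3 dpi (interval 6.39 to 7.67). At 7 dpi it was 2.94-fold below Uninjured (interval 2.68 to 3.24). *Lcn2* was thus the only one of the 4 genes called at 1 dpi whose summed level was below that of Uninjured by 7 dpi. The Uninjured level rested on few cells. The 1% of mesenchymal cells with the most *Lcn2* UMIs held 75.05% of them there, and 1 cell held 241 of 2036. The share of thinned mesenchymal cells with an *Lcn2* UMI was 0.982% in Uninjured (interval 0.783 to 1.22). At 7 dpi that share was 0.720% (interval 0.572 to 0.894), and the intervals of both shares overlapped.

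*Serpina3n* encodes a secreted inhibitor of serine proteases such as granzyme B and cathepsin G. It lies at chr12:104406729-104414329 on the plus strand. Its mesenchymal level was 54.9 CPM in Uninjured, 220.1 CPM at 1 dpi, 262 CPM at 3 dpi and 55.7 CPM at 7 dpi. It was 4.01-fold higher at 1 dpi than in Uninjured (interval 3.86 to 4.16), which straddles the 4-fold limit. The log2 ratio was 1.33 without the filters on cells and 1.82 with median of ratios scaling, both below 4-fold. It was 4.71-fold lower at 7 dpi than at 3 dpi (interval 4.54 to 4.89). At 7 dpi its level was 1.01 times that of Uninjured (interval 0.970 to 1.06), so counting error did not separate those libraries.

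*Serpina3g* belongs to the same serpin cluster and encodes an intracellular inhibitor of cysteine cathepsins known from activated lymphocytes. It lies at chr12:104236245-104241939 on the plus strand. Mesenchymal cells held 3 UMIs of it in Uninjured, 24 at 1 dpi, 131 at 3 dpi and 263 at 7 dpi. These were 0.0378, 0.666, 2.23 and 4.23 CPM. The level at 1 dpi was 17.6 times that of Uninjured, with an interval from 5.35 to 91.4 that reflects the 3 UMIs. The members of this cluster are close copies of each other, so reads can be split between them or dropped by the counting, and values of *Serpina3g* and *Serpina3n* are uncertain to that extent.

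RefSeq promoter windows on GRCm38.p6 held 7 of the 9 genes, not *Hp* and *Orm1*. The 250 bases before the RefSeq start are shown for the 4 genes called at 1 dpi, because these genes shared a direction there. They were searched on both strands for a STAT motif (TTCNNNGAA), a C/EBP motif (TTGCNNAA) and the NF-kB consensus motif. Matches are in capitals, and each sequence is read 5′ to 3′ along the gene:
*Saa3*, chr7:46715677-46715926, minus strand: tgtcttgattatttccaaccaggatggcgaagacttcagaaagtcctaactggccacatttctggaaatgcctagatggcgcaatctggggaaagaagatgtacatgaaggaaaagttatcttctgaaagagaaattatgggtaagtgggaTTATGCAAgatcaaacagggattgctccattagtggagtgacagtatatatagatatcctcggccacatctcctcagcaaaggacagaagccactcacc
*Lcn2*, chr2:32387740-32387989, minus strand: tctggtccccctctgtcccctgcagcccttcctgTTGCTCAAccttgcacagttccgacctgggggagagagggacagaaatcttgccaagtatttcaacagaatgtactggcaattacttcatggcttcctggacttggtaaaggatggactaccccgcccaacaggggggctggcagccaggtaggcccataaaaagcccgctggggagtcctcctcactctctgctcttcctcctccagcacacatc
*Serpina3n*, chr12:104406458-104406707, plus strand: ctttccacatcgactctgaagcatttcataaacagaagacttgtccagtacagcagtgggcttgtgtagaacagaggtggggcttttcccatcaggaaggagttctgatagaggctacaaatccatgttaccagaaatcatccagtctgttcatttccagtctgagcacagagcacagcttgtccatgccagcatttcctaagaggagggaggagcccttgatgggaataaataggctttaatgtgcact
*Serpina3g*, chr12:104235897-104236146, plus strand: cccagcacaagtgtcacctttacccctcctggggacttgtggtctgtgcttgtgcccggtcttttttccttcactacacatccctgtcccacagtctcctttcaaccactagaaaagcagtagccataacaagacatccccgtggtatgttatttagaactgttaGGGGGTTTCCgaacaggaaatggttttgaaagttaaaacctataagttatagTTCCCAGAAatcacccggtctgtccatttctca

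*Saa3* and *Lcn2* each had 1 match to the C/EBP motif and no other match. In *Saa3* it began 99 bases before the start and in *Lcn2* 216 bases before it. *Serpina3g* had a STAT match beginning 33 bases before the start and an NF-kB match beginning 85 bases before it. *Serpina3n* had no match to any of the 3 motifs in this window. Of the other genes, *Ptx3* had a C/EBP match beginning 57 bases before the start, *Cp* a C/EBP match 70 bases before the downstream of its 2 RefSeq starts, and *Steap4* a STAT, a C/EBP and 2 NF-kB matches. Among 32536 windows of this length, 7.04% held the STAT motif, 9.57% the C/EBP motif and 3.92% the NF-kB motif. A match describes the letters only, and binding was not measured. The *Lcn2* window lies inside the span that GENCODE M21 gives the gene, since RefSeq starts it further downstream.

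*Ptx3* encodes pentraxin 3, a soluble pattern recognition molecule of innate immunity made by stromal and myeloid cells. It lies at chr3:66219910-66225805 on the plus strand. Its level in mesenchymal cells was 141 CPM in Uninjured, 252 CPM at 1 dpi, 549 CPM at 3 dpi and 185 CPM at 7 dpi. The 3 dpi level was 2.18-fold above 1 dpi (interval 2.13 to 2.23) and 3.89-fold above Uninjured (interval 3.81 to 3.98). It was 2.97-fold lower at 7 dpi than at 3 dpi (interval 2.91 to 3.03). Its highest level thus came at 3 dpi, as did that of *Serpina3n*.

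*Cp* encodes ceruloplasmin, the copper ferroxidase of plasma, and *Steap4* a membrane metalloreductase that reduces iron and copper. *Cp* lies at chr3:19957054-20009145 and *Steap4* at chr5:7960457-7982213, both on the plus strand. The *Cp* level was 118 CPM in Uninjured, 220.0 CPM at 1 dpi, 139 CPM at 3 dpi and 36.6 CPM at 7 dpi. The *Steap4* level was 139.7 CPM in Uninjured, 287 CPM at 1 dpi, 227 CPM at 3 dpi and 57.8 CPM at 7 dpi. At 1 dpi *Cp* was 1.86-fold (interval 1.80 to 1.92) and *Steap4* 2.05-fold (interval 1.997 to 2.11) above Uninjured, both under the 4-fold limit. Both were lower at 7 dpi than at any other time, *Cp* 3.79-fold (interval 3.61 to 3.97) and *Steap4* 3.92-fold (interval 3.78 to 4.07) below 3 dpi. The *Steap4* difference between 3 and 1 dpi, a log2 ratio of -0.34, was 0.04 when each cell was thinned to 1000 UMIs, so its direction there depended on the thinning.

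*Hp* encodes haptoglobin, which binds free haemoglobin, and *Orm1* encodes orosomucoid 1, a plasma carrier protein. *Hp* lies at chr8:109575128-109579172 on the minus strand and *Orm1* at chr4:63344560-63348163 on the plus strand. The mesenchymal *Hp* level was 4.81 CPM in Uninjured, 12.6 CPM at 1 dpi, 34.6 CPM at 3 dpi and 51.3 CPM at 7 dpi. It was 2.62-fold higher at 1 dpi than in Uninjured (interval 2.28 to 3.01), 2.75-fold higher at 3 dpi than at 1 dpi (interval 2.48 to 3.05) and 1.48-fold higher at 7 dpi than at 3 dpi (interval 1.40 to 1.57). The log2 ratio of *Hp* between 1 dpi and Uninjured, 1.39, was 1.99 in thinned cells and 2.27, past 4-fold, as the mean of cell CPM. The summed markers of mononuclear phagocytes, which also held *Hp*, were 121, 197, 139 and 242 CPM in the mesenchymal cells of Uninjured, 1, 3 and 7 dpi, and their part in the *Hp* ratios was not tested. The mesenchymal UMIs of *Orm1* numbered 7 in Uninjured, 4 at 1 dpi, 14 at 3 dpi and 5 at 7 dpi, which is too few to order the libraries.

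Between 3 and 1 dpi none of the 9 genes differed 4-fold in mesenchymal cells, beside 2.88% of 14804 genes that were higher and 0.432% that were lower. Between 7 and 3 dpi *Lcn2* and *Serpina3n* were at least 4-fold lower and none was 4-fold higher, beside 1.94% of 15470 genes that were lower and 3.92% that were higher. With cells thinned to 1000 UMIs, 4 of the genes were at least 4-fold lower at 7 dpi. The median log2 ratio of the 8 genes was -0.04 between 3 and 1 dpi and -1.75 between 7 and 3 dpi, beside -0.05 and -0.07 over all genes. Against Uninjured, *Saa3*, *Serpina3n*, *Serpina3g* and *Hp* were at least 4-fold higher at 3 dpi and none was 4-fold lower, beside 7.31% of all genes that were higher and 1.98% that were lower. At 7 dpi *Saa3*, *Serpina3g* and *Hp* were at least 4-fold higher and none was 4-fold lower, beside 10.6% of all genes that were higher and 4.22% that were lower. These comparisons share libraries and are not independent of each other.

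The share of mesenchymal cells with a UMI separated the genes into those found in few cells and those found in many. To remove depth, each cell was thinned at random to 1000 UMIs, which left out 11 mesenchymal cells at 1 dpi, 315 at 3 dpi and 1047 at 7 dpi. At 1 dpi, 2.55% of thinned cells had a *Saa3* UMI (interval 2.08 to 3.09) and 4.32% of unthinned cells did. *Lcn2* was in 6.55% of thinned cells (23.3% unthinned), *Ptx3* in 12.1% (29.3%), *Serpina3n* in 16.1% (53.4%), *Cp* in 16.7% (52.8%) and *Steap4* in 20.4% (58.6%). Over the time course the thinned share of *Saa3* was 0.0237%, 2.55%, 1.88% and 1.08% in Uninjured, 1, 3 and 7 dpi. That of *Ptx3* was 8.11%, 12.1%, 25.9% and 13.7%, and that of *Steap4* 11.6%, 20.4%, 20.98% and 5.15%. The thinned share of *Hp* was 0.166%, 0.815%, 1.94% and 4.11%, and was higher at each later time.

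B cells, which are not known as a source of *Ptx3*, *Serpina3n* or *Steap4*, served as a gauge of free RNA captured in droplets. At 1 dpi 1.20% of thinned B cells had a *Ptx3* UMI, 0.675% a *Serpina3n* UMI, 0.375% a *Cp* UMI and 0.900% a *Steap4* UMI, with a median of 2836 UMIs per B cell and 8027 per mesenchymal cell before thinning. *Saa3* was in 0.225% and *Lcn2* in 1.35% of thinned B cells. Each of these 6 shares lay below that of mesenchymal cells, with intervals that did not overlap. For *Hp* the B cell share was 0.525% (interval 0.211 to 1.08), whose interval overlapped that of mesenchymal cells at 1 dpi, so at this depth mesenchymal *Hp* could not be told from that background in that library. At 7 dpi the thinned *Hp* share was 4.11% of mesenchymal cells (interval 3.75 to 4.49). It was 0.752% of the 133 thinned B cells, with an interval from 0.0190 to 4.12 that overlapped it, and 0.270% of NK and T cells (interval 0.0327 to 0.970).

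The UMIs of *Saa3*, *Hp* and *Lcn2* were spread unevenly over mesenchymal cells. At 1 dpi the 1% of mesenchymal cells with the most *Saa3* UMIs held 74.7% of them, and the cell with the most held 167. For *Hp* that share was also 74.7%, and it was 47.1% at 7 dpi. For *Steap4* the top 1% of cells held 10.6% of UMIs at 1 dpi, for *Serpina3n* 11.3%, for *Cp* 13.3%, for *Ptx3* 20.7% and for *Lcn2* 35.9%. In the other libraries the top 1% of cells held 75.05% of *Lcn2* UMIs in Uninjured, where 1 cell held 241, 48.9% at 3 dpi and 80.6% at 7 dpi. This share also depends on how many cells had any UMI of the gene, and so on level and depth. At 7 dpi 228 of 12295 cells had an *Lcn2* UMI, and the top 1% was 123 cells. The shares of genes and libraries are therefore not a like comparison of spread. Since UMIs of one cell are not independent, the counting intervals of *Saa3*, *Lcn2* and *Hp* are narrower than a count of cells would give.

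**Figure D3:**
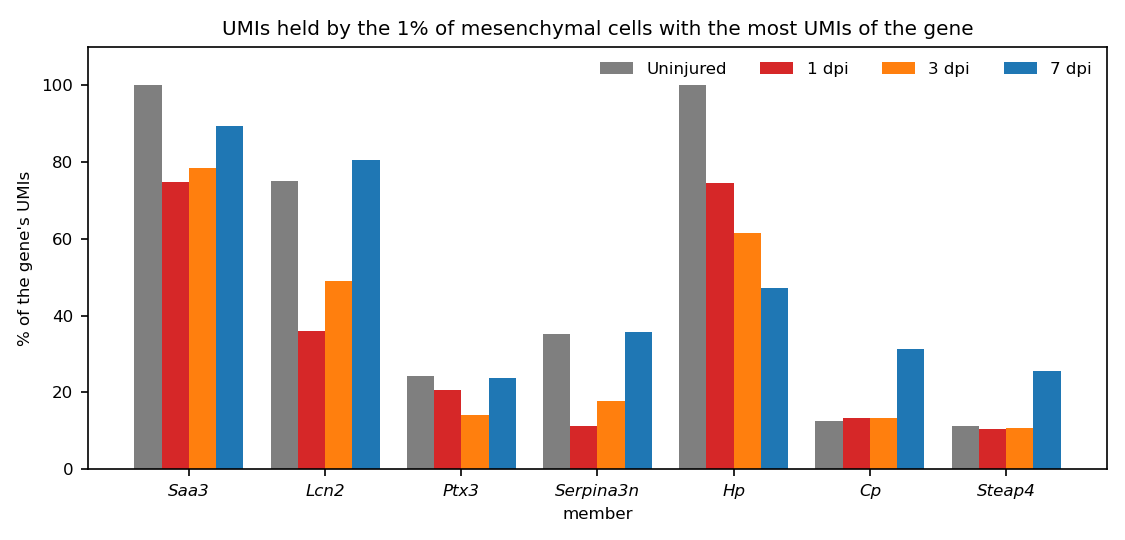
Percent of each gene's UMIs in mesenchymal cells (y axis) that came from the 1% of those cells with the most UMIs of that gene, for 7 genes (x axis) and 4 libraries (colours). *Saa3* stood at 74.7% at 1 dpi, where *Steap4* stood at 10.6%. In Uninjured *Saa3* (22 cells with a UMI) and *Hp* (58 cells) had to stand at 100%, since the 1% was 85 cells.

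Cells in which *Saa3* made up at least 0.1% of all UMIs, a limit chosen after the values were seen, are called Saa3-high cells here. There were 84 Saa3-high mesenchymal cells at 1 dpi, 2.13% of the class, and they held 91.1% of its *Saa3* UMIs. At 3 dpi 71 such cells (1.05%) held 71.6%, at 7 dpi 72 cells (0.586%) held 75.8%, and in Uninjured there was 1. A cell with fewer than 1000 UMIs passes this limit with 1 *Saa3* UMI, and 11, 315 and 1047 mesenchymal cells at 1, 3 and 7 dpi had fewer, so these numbers are not comparable across the libraries' depths. Without the Saa3-high cells, the log2 ratio of *Saa3* between 3 and 1 dpi was 0.67 instead of -0.99, a change that follows from taking out the cells with the most *Saa3*.

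Of the other 8 genes, *Lcn2*, *Hp*, *Serpina3n*, *Ptx3*, *Cp* and *Steap4* were higher in Saa3-high cells than in the remaining mesenchymal cells of the same library, and among them the ratio was largest for *Lcn2* at each time. *Serpina3g* and *Orm1* had too few UMIs in Saa3-high cells for such a ratio. At 1 dpi *Lcn2* was 552 CPM in Saa3-high and 119 CPM in the other mesenchymal cells, 4.62-fold higher. The ratio was 7.36 at 3 dpi and 51.9 at 7 dpi, when 43.1% of Saa3-high and 1.61% of other mesenchymal cells had an *Lcn2* UMI. *Hp* was 2.13-fold higher at 1 dpi, 4.21-fold at 3 dpi and 21.6-fold at 7 dpi, when 79.2% of Saa3-high and 10.4% of other mesenchymal cells had an *Hp* UMI. *Serpina3n* was 1.97-, 2.67- and 6.20-fold higher at 1, 3 and 7 dpi, and *Steap4* 1.34-, 2.08- and 3.59-fold. *Ptx3* was 1.23-, 2.95- and 2.49-fold higher and *Cp* 1.32-, 1.67- and 4.11-fold. *Col1a1*, a general fibroblast collagen, was within 1.02- to 1.08-fold. *Pdgfra*, another mesenchymal marker, was at 0.870, 1.27 and 2.01 of the other cells at 1, 3 and 7 dpi. *S100a8*, a neutrophil transcript, was at 0.918 of the other cells at 1 dpi, with an interval from 0.697 to 1.19 that includes 1. It was at 0.386 at 3 dpi (interval 0.260 to 0.552) and 0.0906 at 7 dpi (interval 0.00229 to 0.505). The leukocyte gene *Ptprc* went the other way, at 1.04 and 1.11 at 1 and 3 dpi and 2.71 at 7 dpi (interval 1.57 to 4.35). The phagocyte marker *Cd68* was at 1.26, 1.64 and 0.518, with intervals that include 1. The part of leukocyte RNA in the ratios was not tested. Median UMIs were 9940 in Saa3-high and 8001 in other cells at 1 dpi, 10044 and 5515.5 at 3 dpi, and 2313 and 2975 at 7 dpi, and the part of this depth gap in the ratios was not tested.

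**Figure D4:**
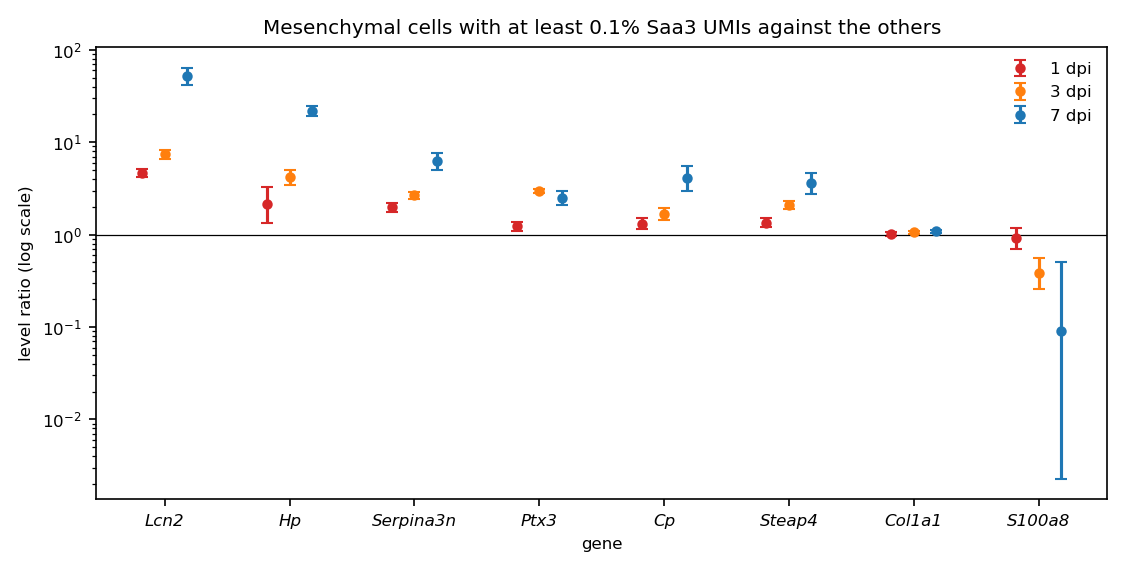
Ratio of the level in Saa3-high mesenchymal cells to that in the other mesenchymal cells (y axis, log scale) for 8 genes (x axis) at 1, 3 and 7 dpi (colours), with 95% counting intervals. The *Lcn2* ratio was 51.9 at 7 dpi, and *Col1a1* stayed between 1.02 and 1.08.

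Other inflammatory genes, also chosen after their values were seen, were higher in Saa3-high cells, apart from *Cxcl5* at 1 dpi. *Cfb*, which encodes complement factor B, was 2.29-, 2.93- and 5.24-fold higher at 1, 3 and 7 dpi, and *C3*, the central complement component, 1.45-, 1.77- and 7.36-fold. *Mmp3*, a matrix protease, was 2.30-, 2.55- and 19.4-fold higher. *Cxcl5*, a neutrophil-attracting chemokine, was at 0.751 of the other cells at 1 dpi and was 5.38- and 19.1-fold higher at 3 and 7 dpi. At 7 dpi 90.3% of Saa3-high and 92.8% of other mesenchymal cells met a gate for Lrrc15-type markers. A gate for Tnmd-type markers took 15.3% and 43.2%, one for cycling markers 4.17% and 19.2%, and one for Smoc2-type markers 52.8% and 40.6%. The Pi16-type gate took 16.7% and 25.4% there, and the C7-type gate 5.56% and 13.3%. At 3 dpi the Lrrc15-type shares were 66.2% and 48.2%, Tnmd-type 11.3% and 7.47%, and cycling 15.5% and 16.3%. At 1 dpi the Tnmd-type shares were 2.38%, from 2 cells, and 2.26%, and the cycling shares 4.76%, from 4 cells, and 3.43%.

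In thinned cells the genes were found together to different degrees. At 1 dpi, 26.0% of mesenchymal cells with a *Saa3* UMI and 6.04% of those without one had an *Lcn2* UMI, 3.97 times the product of both shares over all cells. For *Saa3* and *Serpina3n* the factor was 2.12, and for *Saa3* and *Steap4* 0.980. At 7 dpi the factor was 24.1 for *Saa3* and *Lcn2*, from 21 cells with both, and 8.45 for *Saa3* and *Hp*, from 42 cells. *Cp* and *Steap4*, the metal-handling pair, had a factor of 1.42, 1.72 and 2.62 at 1, 3 and 7 dpi. *Ptx3* and *Steap4* stayed at 0.908, 1.13 and 0.995. These factors come from cells of 1 library each and were not tested.

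Mesenchymal subgates, which overlap and are each named for a marker gene, divided the genes further. The Smoc2-type gate took 88.8% of mesenchymal cells at 1 dpi, the Pi16-type gate 68.6%, the C7-type gate 49.3% and the Tnmd-type gate, named for the tendon gene *Tnmd*, 2.26%. The Lrrc15-type gate took 33.3%, 11.4%, 48.4% and 92.7% of mesenchymal cells in Uninjured, 1, 3 and 7 dpi. In the same order the Pi16-type gate took 73.3%, 68.6%, 54.2% and 25.3%, and the Tnmd-type gate 2.99%, 2.26%, 7.51% and 43.0%. Levels at different times thus came from different mixtures of cells, and depth per cell, which affects the gates, also fell. *Lcn2* was highest in Tnmd-type cells in Uninjured, at 234 CPM beside 25.6 CPM in all mesenchymal cells, and at 279.7 CPM beside 129.9 CPM at 1 dpi. The Uninjured value came from 677 UMIs in 253 cells, of a gene whose UMIs lay in few cells there. In Tnmd-type cells *Lcn2* was 120 CPM at 3 dpi, above its level in all mesenchymal cells. At 7 dpi it was 6.77 CPM in them, below its level in the class. *Cp* and *Steap4* were lower in Tnmd-type cells at 1 dpi, at 114 and 140.5 CPM. *Saa3* was 116 to 117 CPM at 1 dpi in the Pi16-, Smoc2- and C7-type cells, and 60.8 CPM in the 89 Tnmd-type cells. At 7 dpi *Saa3* was 102 CPM in the 352 mesenchymal cells that met none of the subgates, beside 24.8 CPM in all mesenchymal cells. That level came from 44 UMIs, in cells with a median of 962 UMIs beside 2969 in the class. *Serpina3n* was 129 CPM in cycling cells at 1 dpi and 130.1 CPM at 3 dpi, beside 220.1 and 262 CPM in all mesenchymal cells. In Uninjured it was 124 CPM in the 113 cycling cells, above its level in all mesenchymal cells of that library. At 7 dpi it was 45.7 CPM in cycling cells, below its level in the class. *Ptx3* was 429 CPM in cycling cells at 1 dpi, beside 252 CPM in all mesenchymal cells, and 469 CPM beside 549 CPM at 3 dpi.

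At 7 dpi 4713 cells carried at least 5 chondrocyte markers and were counted apart as chondrocytes, and no kept cell of the other libraries met that gate. *Serpina3n* was 88.8 CPM in chondrocytes and 55.7 CPM in mesenchymal cells. *Ptx3* was 118 and 185 CPM, *Steap4* 35.4 and 57.8 CPM, *Saa3* 6.37 and 24.8 CPM, and *Hp* 41.7 and 51.3 CPM. *Cp* was 33.5 and 36.6 CPM, and *Lcn2* 10.2 and 8.71 CPM.

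Neutrophils held the highest *Lcn2* and *Hp* levels of all classes in every library, and the highest *Orm1* level in all but that of 7 dpi. *Lcn2* was 11287 CPM in the 51 neutrophils of Uninjured, 9135 CPM in 510 at 1 dpi, 8545 CPM in 305 at 3 dpi and 2804 CPM in 80 at 7 dpi. *Hp* was 1666, 1232, 1416 and 1818 CPM in the same cells, and *Orm1* 65.0, 121, 112 and 0 CPM, where 0 UMIs allow up to 23.1 CPM at 7 dpi. The neutrophils were divided, after their values were seen, by *Camp*, *Ngp* and *Ltf*, which encode granule proteins made in developing neutrophils. At 1 dpi *Lcn2* was 10895 CPM in the 302 neutrophils with at least 2 of these transcripts and 1826 CPM in the other 208. All 410 *Orm1* UMIs of the neutrophils at 1 dpi were in the first set. *Hp* was 1202 CPM in the first set and 1354 CPM in the second, and so did not follow the division. At 7 dpi 76 of the 80 neutrophils were in the second set.

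**Figure D5:**
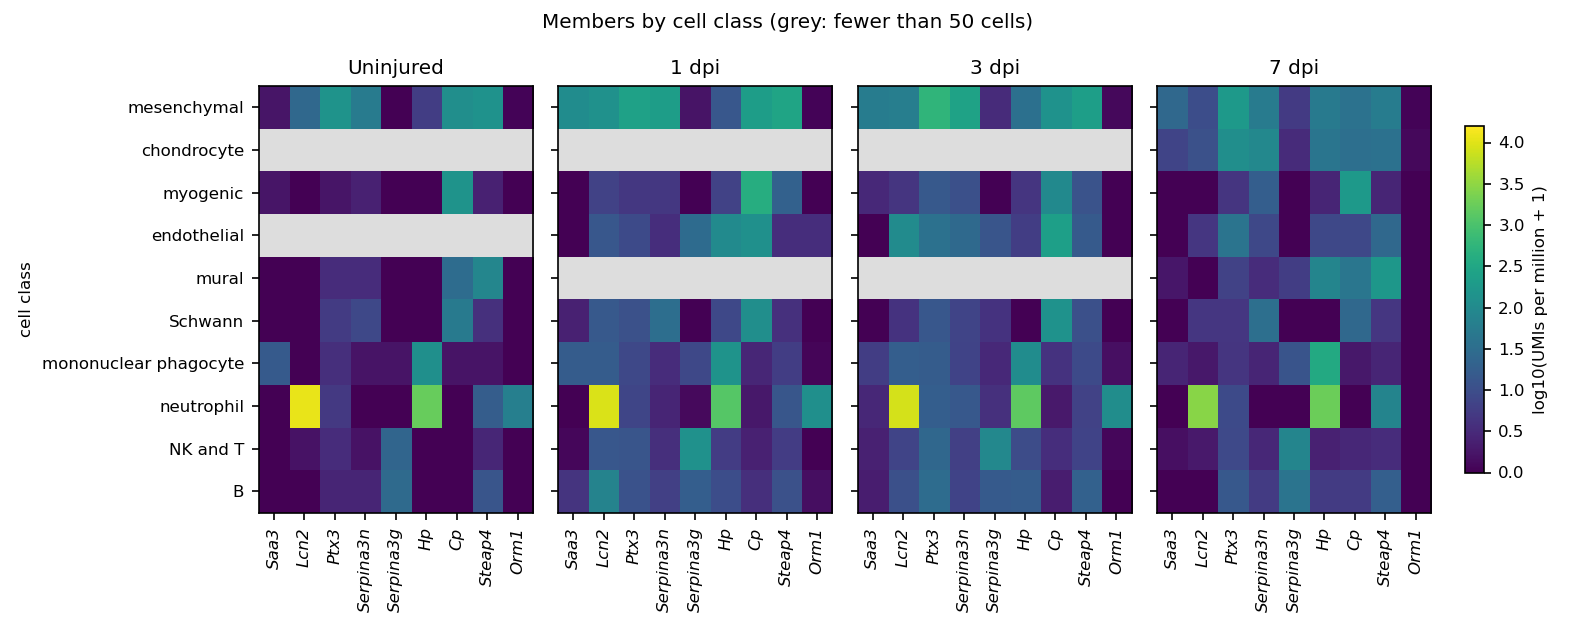
Level of the 9 genes (columns) in each cell class (rows) of the 4 libraries, coloured by log10 of CPM plus 1, with classes of fewer than 50 cells in grey. *Lcn2* and *Hp* were highest in neutrophils in every library, and *Serpina3g* was highest in NK and T cells in the 3 injured libraries.

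Neutrophil RNA in mesenchymal droplets was measured by *S100a8* and *S100a9*, abundant neutrophil transcripts. Both together were 62.3, 166, 222 and 94.7 CPM in the mesenchymal cells of Uninjured, 1, 3 and 7 dpi, beside 133716 to 279821 CPM in neutrophils. For each 1000 of these UMIs neutrophils held 40.3, 51.0, 61.9 and 20.97 *Lcn2* UMIs, and mesenchymal cells 412, 784, 274 and 91.98. At 1 dpi NK and T cells held 57.4, B cells 67.9 and mononuclear phagocytes 87.8. At 7 dpi NK and T cells held 118, from 2 *Lcn2* UMIs (interval 13.2 to 496). Mononuclear phagocytes had 1 *Lcn2* UMI beside 10 of *S100a8* and *S100a9* (interval 2.30 to 703). Both intervals include the mesenchymal value, so these classes cannot be ordered against it. Chondrocytes held 59.8 at 7 dpi, from 252 *Lcn2* UMIs (interval 52.4 to 67.9), below the mesenchymal value. The part of free neutrophil RNA in mesenchymal *Lcn2* was not tested. In the 1168 mesenchymal cells at 1 dpi with no *S100a8* or *S100a9* UMI, *Lcn2* was 121 CPM, beside 133 CPM in those with one. The gap was wider in the other libraries. In Uninjured *Lcn2* was 20.4 CPM without one and 179 CPM in the 247 cells with one, which held 467 UMIs. It was 48.4 CPM without and 78.1 CPM with one at 3 dpi, and 7.17 and 34.3 CPM at 7 dpi. For *Hp* neutrophils held 5.95 to 13.6 UMIs per 1000, and mesenchymal cells 77.3, 76.0, 156 and 542.

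Mononuclear phagocytes were the second class for *Hp*, at 121 CPM in Uninjured, 143 CPM at 1 dpi, 111 CPM at 3 dpi and 350.2 CPM at 7 dpi. *Saa3* was 14.2, 15.5, 4.86 and 1.72 CPM in them. In Uninjured the 43 *Saa3* UMIs of this class were in 2 cells, 35 of them in 1, while at 1 dpi 232 UMIs were in 79 of 1810 cells. *Lcn2* was not detected in them in Uninjured, was 15.8 CPM at 1 dpi, 16.7 CPM at 3 dpi and 0.861 CPM at 7 dpi.

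*Serpina3g* was a lymphocyte transcript in these data. In NK and T cells it was 22.1 CPM in Uninjured, 130.4 CPM at 1 dpi, 89.2 CPM at 3 dpi and 81.3 CPM at 7 dpi, and in B cells 27.2, 16.8, 14.5 and 40.1 CPM. At 1 dpi 10.6% of thinned NK and T cells had a UMI of it (interval 8.79 to 12.6) and 0.102% of mesenchymal cells did (interval 0.0278 to 0.261). The summed level of the 8 NK and T markers in mesenchymal cells was 2.5, 13.6, 20.3 and 48.9 CPM in Uninjured, 1, 3 and 7 dpi. It was higher at each later time, as *Serpina3g* was, and its part in the *Serpina3g* ratios was not tested. Mesenchymal cells that met none of the subgates had 33.0 CPM of *Serpina3g* at 3 dpi, beside 2.23 CPM in all mesenchymal cells. That level came from 13 UMIs in 202 cells, with a median of 1192 UMIs per cell beside 5554 in the class.

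*Cp* was also found in myogenic, Schwann and endothelial cells. Myogenic cells, satellite cells and their progeny, held it at 141 CPM in Uninjured, 412 CPM at 1 dpi, 96.9 CPM at 3 dpi and 187 CPM at 7 dpi, from 97 to 184 cells. At 1 dpi a single myogenic cell held 16.4% of those UMIs. Schwann cells had 52.1, 119, 137 and 25.6 CPM of *Cp*, and endothelial cells 129.7 CPM at 1 dpi, 231 CPM at 3 dpi and 7.24 CPM, from 2 UMIs in 62 cells, at 7 dpi. *Steap4* had a second source in mural cells, the pericytes and smooth muscle of vessels, with 83.2 CPM in the 55 of Uninjured and 164 CPM in the 138 of 7 dpi.

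Some levels outside these classes rested on single cells. The *Lcn2* level of B cells at 1 dpi, 74.4 CPM, came from 332 UMIs, 273 of them in 1 cell. All 40 *Hp* UMIs of endothelial cells at 1 dpi were in 1 of 69 cells. Of the 100 *Hp* UMIs in mural cells at 7 dpi, 55 were in 1 cell.

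The genes with the profile most like each member, by Pearson correlation of log2(CPM + 10) over 34 sums of a class in a library, divided the set in the same way. These sums share libraries, and the correlations are a description. For *Lcn2* they were the neutrophil genes *Ngp*, *Camp*, *Ltf* and *Retnlg* (r from 0.956 to 0.970) and *Mapk13*. For *Hp* they were *Igsf6*, *Pilra*, *Pilrb2*, *Ifitm6* and *Pygl* (all r = 0.931), several of them known from myeloid cells. For *Serpina3g* they were *Slamf1*, *Gimap1os*, *Pim2*, *Tespa1* and *Gimap7*, for *Ptx3* *Cilp*, *Gdf10*, *Thbs4*, *Ccbe1* and *Il33*, and for *Serpina3n* *Bmper*, *Gdf10*, *Hand2*, *Ugdh* and *Ptx3* itself. For *Cp* they were *Nfia*, *Amotl2*, *Nfib*, *Mt2* and *Adgra3*, for *Steap4* *Ebf2*, *Cygb*, *C1s1*, *Gm12122* and *Twist2*, and for *Saa3* *St6galnac5*, *Fetub*, *Aldh1a2*, *Slc6a2* and *Isl1*. Over thinned mesenchymal cells of 1 library, the highest values were weak, such as 0.296 for *Ptx3* with *Ccl7* at 3 dpi and 0.134 for *Saa3* with *Lcn2* at 1 dpi.

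Of 17 paralogs of the members in the files, 8 reached 20 UMIs between 1 dpi and Uninjured, and *Serpina3m* alone was at least 4-fold higher, at 5.48-fold, while 3.53% of all genes were. *Saa1*, a serum amyloid known best from liver, was 9.08, 19.97, 10.4 and 1.96 CPM in the mesenchymal cells of Uninjured, 1, 3 and 7 dpi. Between 7 and 3 dpi 6 of 10 paralogs were at least 4-fold lower, *Saa1*, *Saa2*, *Serpina3c*, *Serpina3f*, *Serpina3i* and *Serpina3m*, beside 1.94% of all genes. Of 21 other acute phase genes 11 reached 20 UMIs between 1 dpi and Uninjured, and 2 were at least 4-fold higher, *Cfb* at 4.23-fold and *Il1rn*, which encodes the interleukin 1 receptor antagonist, with 70 UMIs at 1 dpi and 2 in Uninjured, beside the same 3.53% of all genes. The fibrinogen genes *Fga* and *Fgb*, *Apcs* and *Alb*, typical of hepatocytes, had no UMI in mesenchymal cells of any library. Between 7 and 3 dpi *C3* was 5.63-fold and *Mt2*, a metallothionein, 5.80-fold lower.

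Of the cytokines that induce these genes, 7 of 10 reached 20 UMIs in mesenchymal cells between 1 dpi and Uninjured and 3 were at least 4-fold higher, *Il1b*, *Tnf* and *Osm*, beside 3.53% of all genes. All 3 are typical of myeloid cells. The summed neutrophil markers in mesenchymal cells were 45.0 CPM in Uninjured and 44.3 CPM at 1 dpi, and those of mononuclear phagocytes 121 and 197 CPM. Both sums are limited by the gate, which uses these markers. *S100a8* and *S100a9*, which the gate does not use, were together 62.3 CPM in Uninjured and 166 CPM at 1 dpi. The part of myeloid RNA in the ratios of *Il1b*, *Tnf* and *Osm* was not tested. *Il6*, the classical inducer, was 59.8, 144, 210.2 and 49.6 CPM in Uninjured, 1, 3 and 7 dpi, a course with its highest value at 3 dpi like those of *Ptx3* and *Serpina3n*. It was 2.41-fold higher at 1 dpi than in Uninjured (interval 2.32 to 2.51) and 4.24-fold lower at 7 dpi than at 3 dpi (interval 4.08 to 4.41). None of the 10 cytokine receptors that reached 20 UMIs was 4-fold higher or lower at 1 dpi, and *Osmr*, the oncostatin M receptor, was 2.43-fold higher. Of 17 signalling genes and transcription factors none passed 4-fold at 1 dpi, among them *Stat3* at 1.82-fold. *Cebpd* was 1.72-fold lower at 1 dpi than in Uninjured. The 8 immediate early genes, which respond to tissue dissociation, had a median log2 ratio of -0.67 at 1 dpi against Uninjured and none passed 4-fold.

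Among receptors and partners of the members 11 of 14 reached 20 UMIs between 1 dpi and Uninjured, and *Ctsg* and *Tfrc*, the transferrin receptor gene, were at least 4-fold higher, beside 3.53% of all genes. *Slc22a17*, which encodes a lipocalin 2 receptor, was 14.4, 14.0, 11.0 and 12.9 CPM in mesenchymal cells over the 4 libraries. *Ctsg*, whose product cathepsin G is a serine protease that *Serpina3n* can inhibit, had 1 UMI in Uninjured, 332 at 1 dpi, 1854 at 3 dpi and 3 at 7 dpi. It is known from granulocyte precursors, and *S100a8* and *S100a9* together were also highest in mesenchymal cells at 3 dpi, at 222 CPM beside 62.3 CPM in Uninjured, 166 CPM at 1 dpi and 94.7 CPM at 7 dpi, whose part in the *Ctsg* values was not tested. *Slc40a1*, the iron exporter that works with ceruloplasmin, was 2.17, 2.89, 1.97 and 32.2 CPM, and so was highest when *Cp* was lowest.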

How the data were processed

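The libraries were droplet scRNA-seq of collagenase-digested muscle. The deposited values are raw UMI counts per gene and cell, which the authors made with Cell Ranger 5.0.0 on the mm10 build, before analysis in Seurat 3.1.1 per the labels. Their methods allow for down-sampling of reads where libraries are aggregated, and whether it touched these counts is not given in the sources used here. Here, cells beyond 2 SD of log UMIs or genes or above 10% mitochondrial UMIs were left out, as were the 7.5% of cells with the highest Scrublet doublet scores (scanpy 1.11.5), since the authors' doublet caller was not used here. Mesenchymal subgates needed 2 of 5 markers, and chondrocytes 5 of 8.

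UMIs were summed per class and library and scaled to CPM. Intervals at 95% (exact Poisson, conditional binomial for ratios, Clopper-Pearson for shares; scipy 1.17.1) cover counting error only, and a gene at 0 was given a floor of 3 UMIs. A gene was called when its ratio reached 4-fold with at least 20 UMIs in the higher library. Depths ranged from 91146335 to 129007669 UMIs per library. Barcodes shared by pairs of libraries numbered 30 to 95. Positions are from GENCODE M21. The scripts were tested on simulated data.

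The 9 genes, the other gene lists and the gates were chosen with earlier results of these data known. Genes were named if they were members, belonged to a listed group, or were among the 5 whose profile correlated best with a member over class sums or thinned cells. The Saa3-high limit, the genes compared in those cells and the division of neutrophils were set after values were seen. Alternatives covered filters, gates, thinning, scaling and the UMI minimum.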

Additional observations from a re-analysis of the deposited data

Results flagged for a closer look

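Between 3 and 1 dpi, 3 genes went one way in mesenchymal cells and the other way in another class. Each class was 1 library per time point, and the difference between classes was not tested. *Lcn2* was 8.22-fold higher at 3 dpi in endothelial cells (interval 3.27 to 26.6) and 2.13-fold lower in mesenchymal cells. The 44 endothelial *Lcn2* UMIs at 3 dpi were in 10 of 124 cells, 17 of them in 1 cell. The *Serpina3g* ratio was 0.292 in mononuclear phagocytes (interval 0.150 to 0.520) and 3.35 in mesenchymal cells, with 108 phagocyte UMIs in 48 cells at 1 dpi and 13 in 10 cells at 3 dpi. The *Hp* ratio was 0.0467 in endothelial cells (interval 0.00547 to 0.180) and 2.75 in mesenchymal cells, and all 40 endothelial *Hp* UMIs at 1 dpi were in 1 cell.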

How the results depend on the processing

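No paired analysis was possible because each time point was 1 library. The number of the 9 genes at least 4-fold higher at 1 dpi than in Uninjured was 4, and 3 to 5 over all alternatives. It was 3 with median of ratios scaling, thinned cells, a minimum of 100 UMIs or without Saa3-high cells. Between 3 and 1 dpi it was 0 throughout. Between 7 and 3 dpi it was 2, but 4, all lower, with a linear SD limit, with thinned cells and with the mean of cell CPM. Of 240 alternative log2 ratios, 127 stayed within the counting interval and 113 did not, and at least 17 moved by more than 0.5. The largest move was that of *Saa3* between 1 dpi and Uninjured, from 7.30 to 4.66 without Saa3-high cells, an alternative added after seeing the data. In that comparison the log2 ratio of *Serpina3g* in thinned cells was 1.52. Uninjured had no thinned UMI of it and was set to 3, and at 1 dpi 4 thinned cells had one, so this value rests on the floor. The log2 ratio of *Serpina3n* between 1 dpi and Uninjured was 1.33 without cell filters instead of 2.003. That of *Saa3* between 7 and 3 dpi was -0.16 in thinned cells and -0.13 as the mean of cell CPM instead of -1.18. The sign changed 3 times, for *Steap4* between 3 and 1 dpi with thinned cells (0.04) and the mean of cell CPM (0.0037), and for *Saa3* there without Saa3-high cells (0.67). Median of ratios scaling shifted all log2 ratios by -0.19 at 1 dpi against Uninjured, 0.07 at 3 against 1 dpi and 0.08 at 7 against 3 dpi. The cause of these moves was not tested. Few UMIs limit *Serpina3g* and *Orm1* most.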
